A study of Mus musculus with 8 samples.

Results

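The genes described here write and erase methyl groups on the lysines of histones. They were the 49 symbols of a list of lysine methyltransferases, their PRC2 partners and lysine demethylases, chosen by name, and all 49 matched an Ensembl gene ID among the 54752 in the deposited table. The list holds 33 genes of the methyltransferase group and 16 demethylases. In total 48 of them passed the filter on low counts, and the exception, Setd1b, was listed at 0 in all 8 libraries. Nothing is read from that 0, because genes that heart muscle uses were listed at 0 as well.

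A methyl mark on a histone lysine is placed by a methyltransferase, usually one with a SET domain, and removed by a demethylase of the LSD or JmjC type. The position decides how the mark is read. Methylated H3K4 lies at active promoters and enhancers, H3K36 and H3K79 along transcribed genes, and H3K27 and H3K9 at silenced ones, while H4K20 methylation is tied to chromatin compaction and cell division. In the heart, EZH2 is known for silencing non-cardiac genes during development, DOT1L and KMT2D for roles in heart muscle development, and SMYD1 for its restriction to striated muscle.

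The series addressed the role of Carm1, an arginine methyltransferase of histone H3, in postnatal maturation of the mouse heart. Cardiomyocytes were isolated by Langendorff perfusion, with no sorting step described, and mRNA libraries were prepared from their total RNA. The 4 groups of 2 libraries each were Carm1 KO at 3w (AAV9-Cre), control at 3w (AAV9-GFP), Carm1 KO at 1w (AAV9-Cre) and control at 1w (AAV9-GFP). All mice, controls included, carried Carm1fl/fl alleles and received adeno-associated virus, on postnatal day 3 or 4 in the 3w groups and day 1 or 2 in the 1w groups. Whether 1w and 3w count from birth or from injection was not stated, and they are called time points here. The hearts were mosaic, so uninfected cardiomyocytes with intact Carm1 remained among the infected ones. The promoter that drove Cre is not given in the sources used here. Cre was given to no mouse without floxed alleles, and its own effect cannot be told apart from that of losing Carm1. In each group replicate 1 was injected on the earlier of its 2 days and replicate 2 on the later, which taken as written means a different mouse for each library and ties the replicate number to the injection day. No label states how many mice a library holds, and the p-values cover only the spread between the 2 libraries.

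Library totals lay between 20818285 and 53671626 gene counts, of which 40.7 to 47.8% came from mitochondrial genes. Carm1 had 17.3 and 17.9 CPM in KO at 3w against 39.9 and 39.2 CPM in control, then 22.2 and 22.4 CPM in KO at 1w against 40.5 and 39.1 CPM in control. CPM is a gene's count scaled to a common library size. The log2 fold change of Carm1 was -1.17 (SE 0.0598) at 3w and -0.83 (SE 0.055) at 1w, so the targeted gene fits the labels, with Carm1 RNA remaining in KO. At 3w the summed counts of 4 Y-linked genes were 3 and 2 in KO, against 6765 and 4814 in control. At 1w they were 5025 and 4282 in KO, against 1 and 0 in control. KO and control therefore differ in Y-linked RNA at each time point, in opposite directions, and neither Y-linked state holds KO and control of the same time point. A KO difference at a single time point, a time difference within KO or within control, and a test of whether the KO effect differs between time points cannot be told apart from this split. Averages of the KO effect over both time points, and of the time effect over KO and control, hold both states on each side. They are the ones the account leads with. Every 3w library came from a later injection day than every 1w library, in KO and control alike. No time difference given here can be told apart from the injection day. Of 10 cardiomyocyte markers 8 were expressed in all groups, and Actc1 and Pln were listed at 0 in every library.

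The genes spanned a wide range of levels. Their median was 31.1 CPM, or 3.23 CPM per kilobase of exon, against 8.43 CPM and 1.99 CPM per kilobase over all genes tested. Smyd1, the striated muscle enzyme needed for sarcomere assembly, had the most RNA per length, with a mean level over the 8 libraries of 120.5 CPM per kilobase. Kmt5a, which places the first methyl group on H4K20, followed at 31.2 CPM per kilobase, and Smyd2 stood at 21.4. After them came Setd3, a SET-domain protein known to methylate a histidine of actin, at 11.7 CPM per kilobase, and Dot1l, the H3K79 enzyme, at 10.8. At the low end lay the H3K9 enzyme Suv39h2 at 0.118 CPM per kilobase and the H4K20 enzyme Kmt5b at 0.226. Between relatives the levels were uneven: Kdm4b and Kdm4a, which remove H3K9 and H3K36 methylation, had 8.25 and 7.50 CPM per kilobase, against 2.62 for Kdm4c. Exons of Setd1a, Smyd2 and Kdm3b overlap those of other genes in GENCODE M21 over 52.3%, 30.0% and 24.6% of their length. GENCODE M21 may not be the authors' annotation. For Setd1a nearly all of the overlap is with a gene on the same strand (51.8%), which counting by strand would not separate. For Smyd2 and Kdm3b the overlap is with genes on the other strand. Whether counting used strand is not given in the sources used here, and the values of all 3 genes are uncertain.

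Loss of Carm1 went with small differences in these genes. KO differed from control over both time points in 23 of the 48 genes, 10 higher and 13 lower, by edgeR's quasi-likelihood test with a Benjamini-Hochberg adjusted p under 0.05 over all genes tested. That is 47.9% of them, against 52.8% of all 14665 genes tested (27.5% higher and 25.3% lower), so the share lay near the background. Log2 fold changes ran from -0.36 to 0.46, with a median absolute value of 0.10 against 0.21 over all genes tested. None of the 48 was both called and changed by at least 1.5-fold, against 14.6% of all genes tested. In the methyltransferase group 9 of 32 genes were higher and 7 lower, and of the 16 demethylases 1 was higher and 6 were lower. An additive fit of time point and KO called 12 of the 48, 4 higher and 8 lower, against 30.7% of all genes tested. In bulk RNA, fewer cells of a type and less RNA per cell cannot be told apart.

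**Figure D1:**
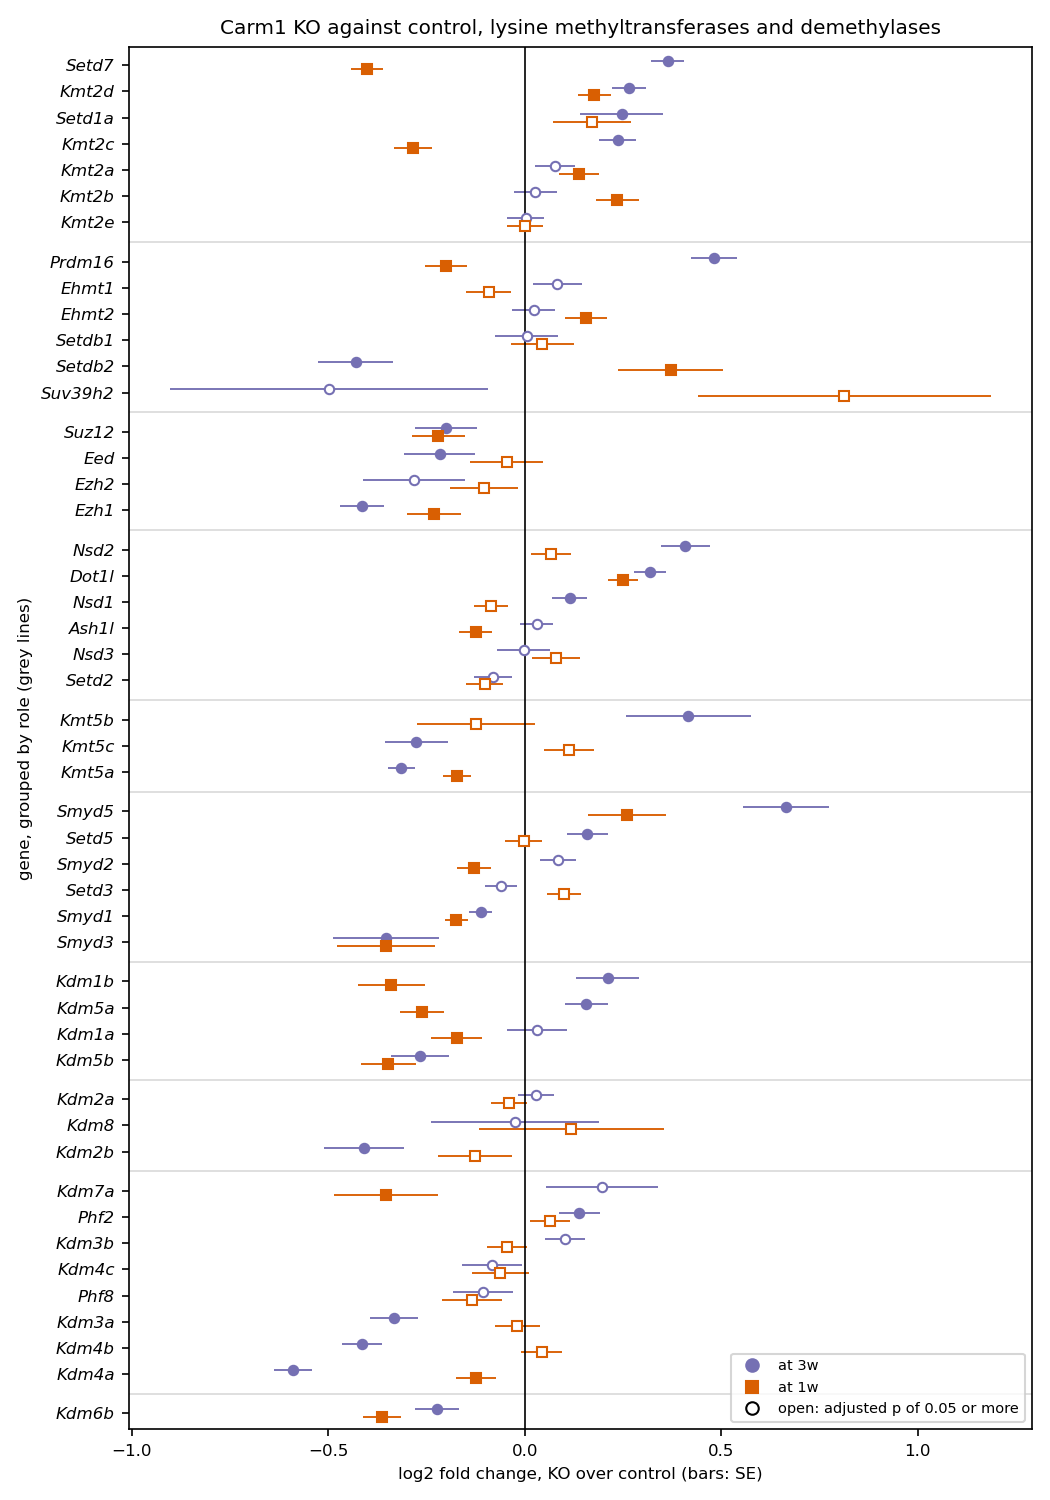
Log2 fold change of KO over control (x axis) for the 48 tested genes (y axis), at 3w (circles) and at 1w (squares), with bars for the SE and filled symbols for an adjusted p under 0.05. Grey lines part the roles, from H3K4 methyltransferases at the top to the H3K27 demethylase Kdm6b at the bottom, and the called values stay between -0.59 (Kdm4a at 3w) and 0.67 (Smyd5 at 3w).

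RNA from other cell types moved in the same contrast. Summed over the marker lists, fibroblast genes (9 of 9 tested higher, Tcf21 at 0) had 627 to 640.0 CPM in KO against 286 to 287 CPM in control at 3w, then 2309 to 2335 CPM in KO against 1248 to 1249 CPM in control at 1w. Macrophage genes (10 of 10 higher) had 117 to 121 CPM in KO against 76.7 to 78.0 CPM in control at 3w, then 138 to 145 CPM in KO against 43.8 to 45.1 CPM in control at 1w. Smooth muscle and pericyte genes (8 of 8 higher) had 1654 to 1656 CPM in KO against 807 to 840.1 CPM in control at 3w, then 2039 to 2061 CPM in KO against 1394 to 1442 CPM in control at 1w. In each of these lists the KO libraries lay above the control libraries of their time point. Mitosis genes (10 of 14 higher) had 23.0 to 24.9 CPM in KO against 19.2 to 20.1 CPM in control at 3w, then 308 to 310.0 CPM in KO against 232 to 239.5 CPM in control at 1w. Cardiomyocyte genes (8 of 8 tested lower) had 71130 to 71750 CPM in KO against 88180 to 91980 CPM in control at 3w, then 41810 to 42100 CPM in KO against 45120 to 45780 CPM in control at 1w. Over both time points endothelial genes were higher in 8 of 10, atrial muscle genes in 7 of 8 and epicardial genes in 3 of 7, and 4 of 5 tested erythroid genes were lower, with Alas2 at 0. These averages hold different directions at each time point. At 3w 5 epicardial genes were lower and 0 higher in KO, 5 atrial muscle genes lower and 3 higher, and 2 erythroid genes higher and 0 lower. At 1w 5 epicardial and 8 atrial muscle genes were higher and 0 lower, and 4 erythroid genes were lower and 0 higher. Endothelial genes were higher in 7 and lower in 1 at 3w, and higher in 9 and lower in 1 at 1w. The part of these shifts in the differences described here was not tested.

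Among the H3K4 methyltransferases 4 of 7 tested were higher in KO over both time points and 0 were lower. That is 57.1% called, against 52.8% of all genes tested (27.5% higher and 25.3% lower), and with so few genes nothing is read from this share. At 1w alone 3 of the 7 were higher and 2, Kmt2c and Setd7, were lower. Among all genes tested 43.0% were called at 1w (23.0% higher, the rest of the calls lower). With 7 genes nothing is read from the counts at 1w either. Kmt2d, an enhancer H3K4 enzyme whose loss disturbs heart development in mice, lies at chr15:98831669-98871204 in the mm10 build and had 79.9 and 73.9 CPM in KO at 3w, against 64.99 and 62.8 CPM in control at 3w. The other levels were 72.8 and 73.3 CPM in KO at 1w, against 63.4 and 65.6 CPM in control at 1w. All 4 KO libraries lay above all 4 control libraries, and its log2 fold change was 0.22 (SE 0.0303). Kmt2a, the mammalian trithorax homologue, had a log2 fold change of 0.11 (SE 0.0361), and its close relative Kmt2b one of 0.13 (SE 0.0387). Setd1a, a catalytic subunit of COMPASS with the annotation overlap given above, had 0.21 (SE 0.0729). For Kmt2e, a SET protein without clear enzyme activity, the log2 fold change was 0.00 (SE 0.0328) and did not pass the test. The calls for Kmt2a, Kmt2b and Setd1a were lost with DESeq2, with highest adjusted p of 0.176, 0.109 and 0.127 over the alternatives to the edgeR quasi-likelihood test, and that for Kmt2d was kept in all of them. Kmt2a also lost it without control 3w replicate 2 or KO 3w replicate 1, and Setd1a without control 3w replicate 2, KO 1w replicate 2 or KO 3w replicate 2.

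Smyd5, a SMYD family gene, was higher in KO at both time points. Located at chr6:85431989-85446435, it had 8.72 and 8.26 CPM in KO at 3w, against 5.03 and 5.79 CPM in control at 3w. Its other levels were 8.40 and 8.89 CPM in KO at 1w, against 6.55 and 7.68 CPM in control at 1w. Every KO library lay above every control library, with a log2 fold change of 0.46 (SE 0.0743) and an adjusted p of 3.01e-07 by edgeR's quasi-likelihood test. Smyd3, a family member with histone and cytoplasmic substrates at chr1:178951960-179518041, went the other way. It had 3.81 and 3.83 CPM in KO at 3w against 4.89 and 4.88 CPM in control, then 4.00 and 4.53 CPM in KO at 1w against 4.95 and 5.77 CPM in control. All 4 KO libraries lay below all 4 control libraries, and the log2 fold change was -0.35 (SE 0.0919). Smyd1, the most abundant of the list, was lower in KO at both time points, with a log2 fold change of -0.14 (SE 0.0207) over both and 616 and 625 CPM in KO at 3w, against 678 and 663 CPM in control at 3w. Cardiomyocyte marker sums were also lower in KO, as given above.

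Of the H3K36 and H3K79 writers, Dot1l and Nsd2 were higher in KO and Setd2 was lower. Dot1l, the enzyme that places H3K79 methylation, lies at chr10:80755206-80795461 and had 83.6 and 84.2 CPM in KO at 3w, against 67.5 and 67.2 CPM in control at 3w. The other levels were 122 and 124 CPM in KO at 1w, against 99.6 and 107 CPM in control at 1w. The groups did not overlap at either time point, and the log2 fold change over both was 0.28 (SE 0.0278), with an adjusted p of 1.57e-13 by edgeR's quasi-likelihood test. Nsd2, an H3K36 dimethylase, had a log2 fold change of 0.24 (SE 0.0402) over both time points, made up of 0.41 (SE 0.0622) at 3w and 0.07 (SE 0.0508) at 1w. Setd2, the H3K36 trimethylase, had -0.09 (SE 0.0336) over both time points and lost its call in 5 of 15 alternatives, among them those without control 1w replicate 2 or KO 1w replicate 2. Nsd1, Nsd3 and Ash1l did not pass the test, with log2 fold changes of 0.01, 0.04 and -0.05. Among the H4K20 writers, Kmt5a was lower in KO, with 182 and 184 CPM in KO at 3w against 232 and 223 CPM in control, then 119 and 118 CPM in KO at 1w against 137 and 130.0 CPM in control. Its log2 fold change was -0.24 (SE 0.0246), and the H3K9 writers Ehmt2 (0.09) and Prdm16 (0.14) were higher. Ehmt2 lost its call in 10 of 15 alternatives, among them those without any 1 library other than control 1w replicate 2, and Prdm16 lost it in the additive fit and without KO 3w replicate 2. Over the alternatives, the edgeR or DESeq2 adjusted p reached 0.163 for Setd2, 0.335 for Ehmt2 and 0.469 for Prdm16.

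**Figure D2:**
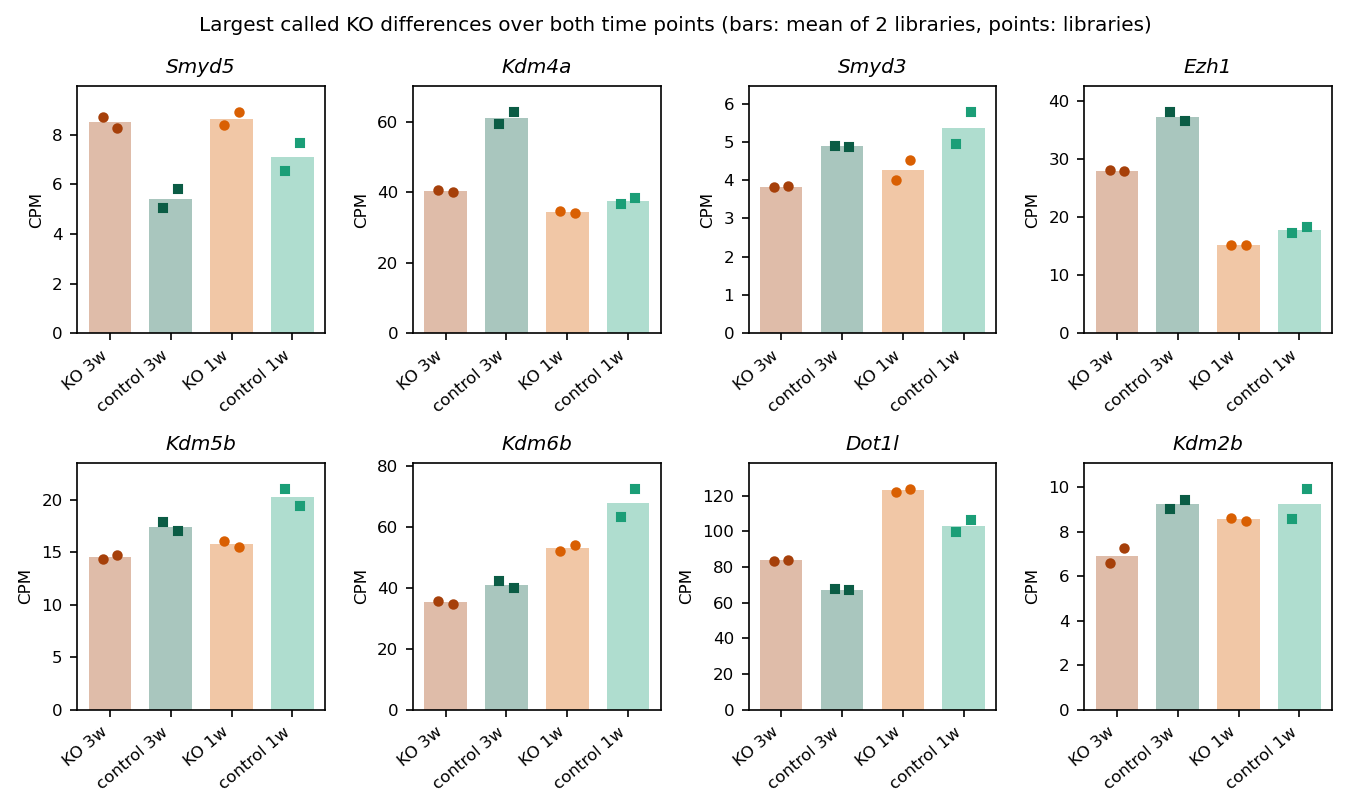
CPM (y axes, each from 0) of the 8 genes with the largest called log2 fold change in KO over both time points, in KO at 3w, control at 3w, KO at 1w and control at 1w. Bars are means of 2 libraries and points are the libraries, and Smyd5 and Dot1l stand higher in KO at both time points while Kdm4a, Smyd3, Ezh1, Kdm5b and Kdm6b stand lower.

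Among the 16 erasers the 6 lower in KO were Kdm4a, Kdm4b, Kdm3a, Kdm5b, Kdm2b and Kdm6b. Kdm4a, a JmjC demethylase of H3K9 and H3K36 studied for its part in heart muscle growth, lies at chr4:118136957-118180043 and had 40.7 and 40.2 CPM in KO at 3w, against 59.4 and 62.6 CPM in control at 3w. Its other levels were 34.7 and 34.1 CPM in KO at 1w, against 36.6 and 38.3 CPM in control at 1w. Control libraries at 3w stood apart from all the others, and the log2 fold change over both time points was -0.36 (SE 0.0353), with an adjusted p of 2.04e-13 by edgeR's quasi-likelihood test. Its paralogue Kdm4b was lower in KO over both time points, at -0.19 (SE 0.0367), with -0.41 (SE 0.0506) at 3w and 0.04 (SE 0.053) at 1w, where it did not pass the test. Kdm3a, an H3K9 demethylase induced by hypoxia, had -0.18 (SE 0.0418). Kdm4c was not called, at -0.07 (SE 0.0526), although all 4 KO libraries lay below all 4 control libraries. Phf2, a JmjC protein of H3K9, was the eraser that was higher in KO, at 0.10 (SE 0.0366), and it lost its call in 7 of 15 alternatives, among them those without control 1w replicate 1, control 3w replicate 2, KO 1w replicate 2 or either KO library at 3w. Kdm4b and Kdm3a lost theirs in the additive fit. Over the alternatives, the highest edgeR or DESeq2 adjusted p was 0.187 for Phf2, 0.155 for Kdm4b and 0.0882 for Kdm3a.

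Kdm5b, Kdm6b and Kdm2b each remove a different mark. Kdm5b, an H3K4 demethylase at chr1:134560171-134635285, had 14.4 and 14.7 CPM in KO at 3w, against 17.9 and 16.99 CPM in control at 3w. Its other levels were 16.1 and 15.5 CPM in KO at 1w, against 21.03 and 19.4 CPM in control at 1w. None of its KO libraries reached a control library at either time point, and the log2 fold change was -0.31 (SE 0.0511). Kdm6b, the H3K27 demethylase at chr11:69398508-69413675, had 35.8 and 34.6 CPM in KO at 3w against 42.2 and 39.8 CPM in control, then 51.9 and 54.1 CPM in KO at 1w against 63.1 and 72.3 CPM in control. It was lower in KO at both time points, with a log2 fold change of -0.29 (SE 0.0369). For Kdm2b, an H3K36 demethylase that also recruits a Polycomb complex, the levels were 6.60 and 7.25 CPM in KO at 3w against 9.04 and 9.43 CPM in control, then 8.63 and 8.50 CPM in KO at 1w against 8.56 and 9.92 CPM in control. Its log2 fold change was -0.41 (SE 0.102) at 3w and -0.13 (SE 0.0936) at 1w, where the groups overlapped, and the difference of these values did not pass its test (-0.28, SE 0.139). Over both time points the log2 fold change was -0.27 (SE 0.0693), a call that was lost in the additive fit, with an adjusted p of 0.0514 by edgeR's quasi-likelihood test. At 1w all 4 H3K4 demethylases were lower in KO, at -0.17 for Kdm1a, -0.34 for Kdm1b, -0.26 for Kdm5a and -0.35 for Kdm5b, where 43.0% of all genes tested were called (23.0% higher, the rest lower). The call of Kdm1a at 1w was lost with DESeq2, with no filter and without control 1w replicate 2 or KO 1w replicate 2, with a log2 fold change as near 0 as -0.07 and an edgeR or DESeq2 adjusted p of up to 0.543. At 3w Kdm5b was lower, Kdm1b and Kdm5a were higher and Kdm1a was not called. Kdm1b lost its call at 3w with DESeq2 and without control 3w replicate 1 or KO 3w replicate 2, with a log2 fold change down to 0.10 and an edgeR or DESeq2 adjusted p of up to 0.461. Kdm5a lost its own at 3w with DESeq2 and without control 3w replicate 2 or either KO library at 3w, with an edgeR or DESeq2 adjusted p of up to 0.149.

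All 4 KO libraries lay to 1 side of all 4 control libraries in 7 of the 48 genes: Kmt2b, Kmt2d, Setd1a and Smyd5 above, and Smyd3, Kdm5b and Kdm4c below. Among all genes tested 10.1% did, 5.48% above and 4.66% below. The 25 genes not called over both time points had log2 fold changes between -0.13 and 0.16, with SEs between 0.0294 and 0.28. The widest SE belonged to Suv39h2, whose level of 0.118 CPM per kilobase leaves a difference of that size undetectable at this depth. Kdm2a, an H3K36 demethylase, and Kmt2e had SEs of 0.0324 and 0.0328 around log2 fold changes of -0.01 and 0.00, and neither was called at either time point. Setd7 had the narrowest SE, 0.0294, but its average of -0.02 holds calls in opposite directions, 0.36 at 3w and -0.40 at 1w.

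PRC2, the complex that methylates H3K27, is built on EZH2 or EZH1 with EED and SUZ12, and EZH2 is known as the form of dividing cells and EZH1 as that of resting ones. For Ezh1 the level was 28.03 and 27.9 CPM in KO at 3w against 37.96 and 36.5 CPM in control, then 15.2 and 15.1 CPM in KO at 1w against 17.2 and 18.2 CPM in control, lower in KO without overlap at each time point. The log2 fold change in KO over both time points was -0.32 (SE 0.0444), and the test of its difference between the time points gave -0.18 (SE 0.0887), which did not pass. Ezh2 had 4.13 and 4.57 CPM in KO at 3w against 5.05 and 5.62 CPM in control, then 11.9 and 11.9 CPM in KO at 1w against 14.3 and 11.7 CPM in control. At 1w the groups overlapped, and the log2 fold change over both time points of -0.19 (SE 0.0775) lost its call in 8 of 15 alternatives, with an adjusted p of up to 0.17 in place of 0.0313 by edgeR's quasi-likelihood test. Among these were the fits without control 1w replicate 1, control 3w replicate 2, KO 3w replicate 1 or either KO library at 1w. Suz12, the subunit that holds PRC2 together, was lower at -0.21 (SE 0.0519), with 12.4 and 13.3 CPM in KO at 3w against 15.1 and 14.4 CPM in control, then 19.1 and 18.2 CPM in KO at 1w against 20.9 and 22.3 CPM in control. Eed, which binds the mark that PRC2 makes, had -0.13 (SE 0.0648) and did not pass the test. The accessory subunits Jarid2, Rbbp7 and Rbbp4 were lower in KO, at -0.20 (SE 0.0393), -0.20 (SE 0.0249) and -0.16 (SE 0.0363). They were the 3 calls among the 9 accessory genes tested, or 33.3%, against 52.8% of all genes tested. Rbbp7 and Rbbp4 were called lower at both time points. Jarid2 had -0.32 at 1w and -0.08 at 3w, where it did not pass the test.

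The 2 enzymes of PRC2 moved apart between the time points. Ezh1 rose at 3w relative to 1w, with a log2 fold change of 0.98 (SE 0.044) over KO and control, and Ezh2 fell, with -1.36 (SE 0.0746). Scaled by exon length, Ezh1 had 6.09 and 5.49 times the level of Ezh2 in KO at 3w, and 6.74 and 5.83 times in control at 3w. At 1w the ratio was 1.14 and 1.14 in KO, and 1.09 and 1.40 in control. The KO and control ratios overlapped at each time point. Suz12 fell at 3w (-0.55, SE 0.0516) and Eed rose (0.21, SE 0.0648). Among the accessory genes Phf19, which guides PRC2 to chromatin, fell by 2.30 on the log2 scale (SE 0.183), and Mtf2, its relative, by 0.64. The 14 mitosis genes, whose sums are given above, were all lower at 3w, and their part in the Ezh2 difference was not tested.

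**Figure D3:**
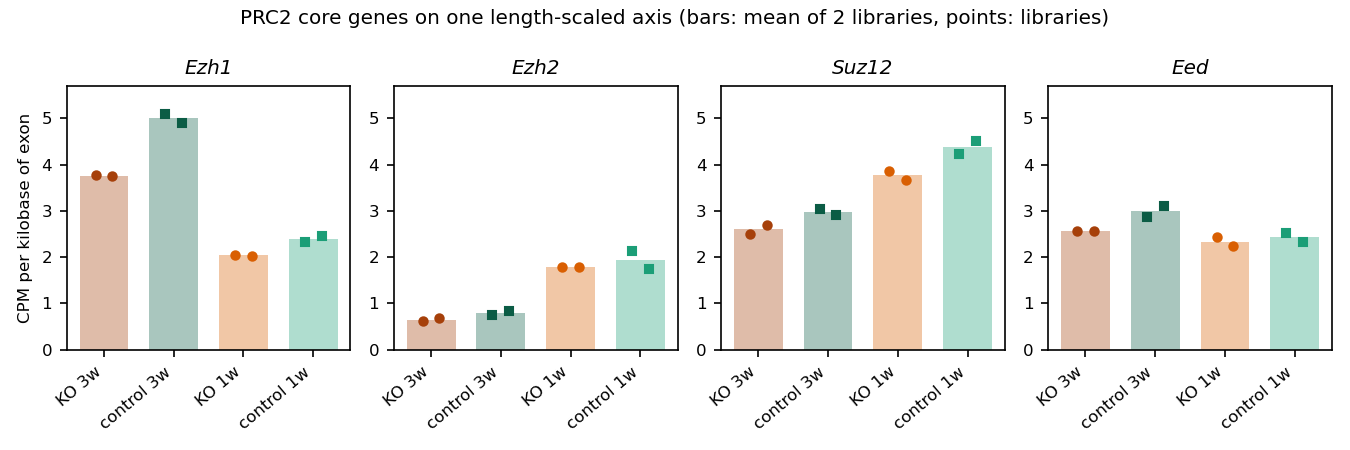
CPM per kilobase of exon (y axis, shared and from 0) for the PRC2 core genes Ezh1, Ezh2, Suz12 and Eed in KO at 3w, control at 3w, KO at 1w and control at 1w, with bars for the mean of 2 libraries and points for the libraries. Ezh1 stands at 5.49 to 6.74 times the level of Ezh2 at 3w and at 1.09 to 1.40 times at 1w.

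Over KO and control together, 36 of the 48 genes differed at 3w from 1w, 18 higher and 18 lower, by the same test. That is 75.0%, against 76.8% of all genes tested (37.4% higher and 39.4% lower). Their median absolute log2 fold change was 0.21, against 0.49 over all genes tested. In total 8 were called and changed by at least 1.5-fold, namely Setdb2, Ezh1 and Kmt5a upward and Ezh2, Nsd2, Kmt5c, Kdm6b and Setd5 downward, against 41.6% of all genes tested. All 4 libraries at 3w lay to 1 side of all 4 at 1w in 23 genes, 12 above and 11 below, against 53.8% of all genes tested, 26.4% above and 27.4% below. In KO and in control alike, 22 genes changed in the same direction, against 53.6% of all genes tested.

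**Figure D4:**
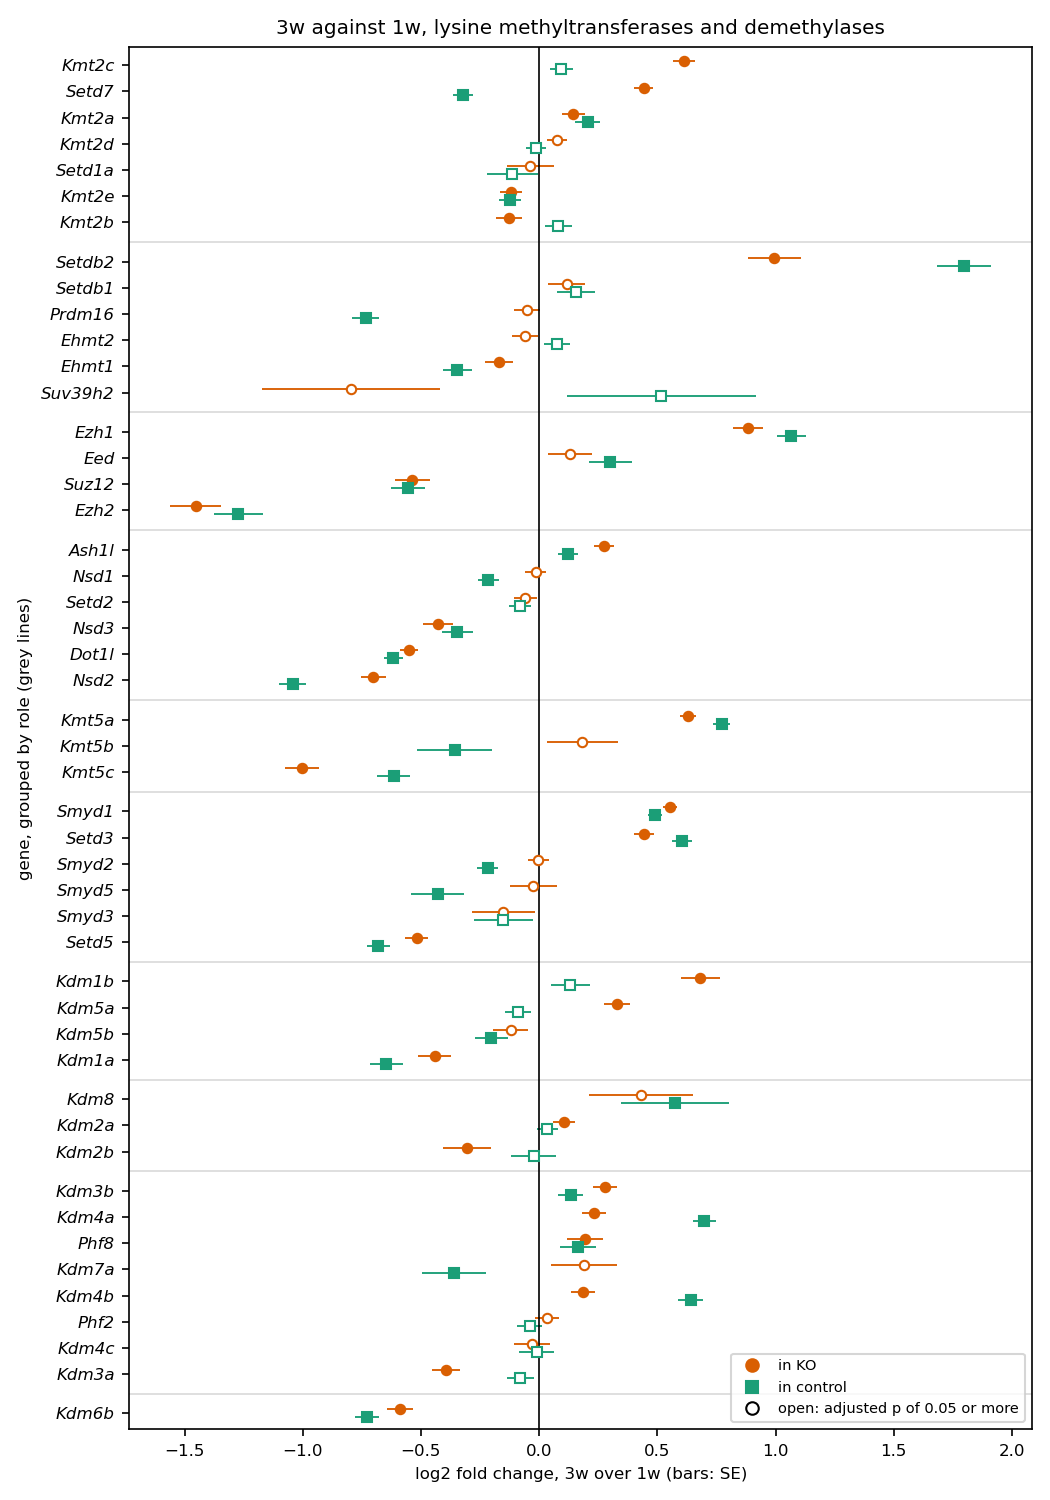
Log2 fold change of 3w over 1w (x axis) for the 48 tested genes (y axis), in KO (circles) and in control (squares), with bars for the SE and filled symbols for an adjusted p under 0.05. Setdb2 and Ezh1 lie farthest to the right and Ezh2 and Nsd2 among the farthest to the left in KO and control alike.

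RNA of other cell types also differed between the time points. Fibroblast genes fell in 9 of 9 tested, endothelial genes in 9 of 10 with 1 higher, smooth muscle and pericyte genes in 8 of 8, atrial muscle genes in 6 of 8 with 1 higher and epicardial genes in 4 of 7 with 1 higher. Macrophage genes were split, with 4 higher and 4 lower of 10, and 5 of 5 tested erythroid genes and 8 of 8 tested cardiomyocyte genes rose. For 3 of the lists these averages hold different directions in KO and control. Within control 6 atrial muscle genes were higher and 2 lower, 4 epicardial genes higher and 3 lower, and 5 macrophage genes higher and 1 lower. Within KO 1 atrial muscle gene was higher and 7 lower, 0 epicardial genes higher and 7 lower, and 1 macrophage gene higher and 7 lower. Endothelial sums were 412 to 423 CPM in KO and 355 to 363 CPM in control at 3w, against 987 to 992 CPM in KO and 854 to 868 CPM in control at 1w. Atrial muscle sums were 602 to 617 CPM in KO and 177 to 184 CPM in control at 3w, against 646 to 651 CPM in KO and 71.0 to 74.1 CPM in control at 1w. Epicardial sums were 14.0 to 14.4 CPM in KO and 23.3 to 23.4 CPM in control at 3w, against 58.2 to 60.1 CPM in KO and 34.7 to 35.4 CPM in control at 1w. Erythroid sums were 157 to 162 CPM in KO and 122 to 134 CPM in control at 3w, against 26.1 to 27.6 CPM in KO and 55.6 to 77.7 CPM in control at 1w. The part of these shifts in the time differences was not tested.

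Setdb2, an H3K9 methyltransferase of the SETDB family at chr14:59402009-59440884, rose at 3w relative to 1w. Its level was 8.16 and 8.40 CPM at 3w in KO, against 4.38 and 3.89 CPM at 1w. In control it had 11.4 and 10.8 CPM at 3w, against 3.06 and 3.31 CPM at 1w. The libraries at 3w all lay above those at 1w, with a log2 fold change of 1.40 (SE 0.0801) over KO and control, made up of 1.00 in KO and 1.80 in control. Kmt5a, the H4K20 monomethylase at chr5:124439930-124462308, rose as well, by a log2 fold change of 0.70 (SE 0.0246), and Smyd1 by 0.52 (SE 0.0208). The Kmt5a level was 182 and 184 CPM at 3w in KO, against 119 and 118 CPM at 1w, and 232 and 223 CPM at 3w in control, against 137 and 130.0 CPM at 1w. Kmt5c, which adds further methyl groups on H4K20 at chr7:4740115-4747514, fell, with 12.6 and 12.2 CPM at 3w in KO, against 24.9 and 24.99 CPM at 1w. In control its level was 14.6 and 15.6 CPM at 3w, against 21.1 and 24.5 CPM at 1w. Its libraries at 3w all lay below those at 1w, and its log2 fold change was -0.81 (SE 0.0511).

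Nsd2 at chr5:33820725-33897975 fell with 25.2 and 25.7 CPM at 3w in KO, against 40.5 and 42.4 CPM at 1w, and 19.2 and 19.1 CPM at 3w in control, against 38.9 and 39.99 CPM at 1w. Its libraries at 3w all lay below those at 1w, and the log2 fold change was -0.87 (SE 0.0398). Setd5, a SET-domain protein that is needed for development, had 37.9 and 41.5 CPM at 3w in KO, against 57.7 and 55.98 CPM at 1w, and 36.4 and 34.5 CPM at 3w in control, against 57.4 and 56.7 CPM at 1w. It fell by 0.60 on the log2 scale (SE 0.0347) without overlap of the time points. Kdm6b, whose libraries are given above, fell by 0.66 on the log2 scale (SE 0.0368), and Dot1l by 0.58. Among the other erasers Kdm1a, the LSD1 enzyme, fell (-0.54, SE 0.0495), while Kdm8 (0.50, SE 0.158), Kdm4a (0.47, SE 0.0353), Kdm4b (0.41, SE 0.0367) and Kdm1b (0.41, SE 0.0585) rose. By role, 4 of 6 H3K36 and H3K79 writers fell and 1 rose, 2 of 7 H3K4 writers rose and 1 fell, and 4 of 8 H3K9 erasers rose and 1 fell. Over all genes tested 37.4% rose and 39.4% fell, and with so few genes in each role nothing is read from these shares.

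Promoter windows from RefSeq (GRCm38.p6) were at hand for 36 of the 49 genes. Printed here are the 250 bases before the start of the pair of PRC2 enzymes, which moved in opposite directions between the time points, and of Setdb2 and Kmt5c, which rose and fell. Capitals mark the CCAAT box (CCAAT, or ATTGG on the other strand) and the E2F letters searched, TTTCCCGC, TTTCGCGC, TTTGCCGC and TTTGGCGC, on both strands. The windows are Ezh1 (chr11:101226464-101226713, minus strand), Ezh2 (chr6:47595031-47595280, minus strand), Setdb2 (chr14:59440881-59441130, minus strand) and Kmt5c (chr7:4739877-4740126, plus strand).
Ezh1: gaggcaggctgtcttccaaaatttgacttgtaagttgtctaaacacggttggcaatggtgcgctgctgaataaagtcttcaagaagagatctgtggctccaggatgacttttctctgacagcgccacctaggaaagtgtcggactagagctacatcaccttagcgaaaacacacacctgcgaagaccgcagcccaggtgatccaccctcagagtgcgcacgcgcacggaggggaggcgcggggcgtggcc
Ezh2: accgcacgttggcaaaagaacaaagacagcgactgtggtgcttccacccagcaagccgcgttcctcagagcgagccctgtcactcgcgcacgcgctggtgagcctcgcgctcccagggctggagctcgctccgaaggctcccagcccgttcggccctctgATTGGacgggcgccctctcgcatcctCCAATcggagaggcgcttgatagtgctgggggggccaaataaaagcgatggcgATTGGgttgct
Setdb2: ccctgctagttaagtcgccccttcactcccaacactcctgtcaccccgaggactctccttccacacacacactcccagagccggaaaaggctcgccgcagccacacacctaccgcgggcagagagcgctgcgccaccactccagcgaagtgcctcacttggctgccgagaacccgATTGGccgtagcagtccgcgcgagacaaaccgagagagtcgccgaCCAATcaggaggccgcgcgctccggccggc
Kmt5c: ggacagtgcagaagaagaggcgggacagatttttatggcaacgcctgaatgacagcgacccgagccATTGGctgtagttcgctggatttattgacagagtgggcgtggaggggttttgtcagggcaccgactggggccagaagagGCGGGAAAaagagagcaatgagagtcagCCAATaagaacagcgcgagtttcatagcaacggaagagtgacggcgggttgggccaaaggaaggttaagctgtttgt
Ezh2 holds 3 CCAAT boxes and Ezh1 holds 0. Setdb2 holds 2, and Kmt5c holds 2 with 1 match to the E2F letters. In the RefSeq set of 32851 windows, 33.8% hold a CCAAT box and 1.86% the E2F letters, and among the 47 windows of the listed genes 42.6% and 4.26% do. Of the genes with a window, 8 of 13 that fell and 8 of 13 that rose at 3w hold a CCAAT box, and 0 of 10 that were not called hold it. A gene was counted if any of its windows held the letters, so these counts are not comparable with the shares of windows. The E2F letters stand in 2 of the 13 that fell, Kmt5c and Suz12. A match is a description of these letters and not evidence that a factor binds.

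KO and control were also compared at each time point, where the Y-linked split applies. At 3w 28 of the 48 genes were called, 14 higher and 14 lower, against 49.2% of all genes tested (24.4% higher and 24.8% lower). At 1w 24 were called, 7 higher and 17 lower, against 43.0% of all genes tested. DESeq2 called 18 at 3w and 13 at 1w. Its share of all genes tested is not given beside these counts, and nothing is read from the drop. In the same direction at both time points 11 genes were called (20.7% of all genes tested): Kmt2d, Dot1l and Smyd5 higher, and Ezh1, Suz12, Kmt5a, Smyd1, Smyd3, Kdm5b, Kdm4a and Kdm6b lower. Kmt2d, Dot1l, Kmt5a, Kdm5b and Kdm6b kept both calls in all alternatives. At 1w Smyd5 lost its call in 6 of 15, among them DESeq2 and the fits without control 1w replicate 1 or any 1 of the KO libraries. Kdm4a at 1w also lost it in 6 of 15, among them DESeq2, the replicate block and the fits without control 1w replicate 2 or either KO library at 1w. Smyd3 and Suz12 lost their calls at both time points with DESeq2. Both also lost it at 1w without control 1w replicate 2, and at 3w with upper-quartile factors and without control 3w replicate 1 or KO 3w replicate 1. In addition Smyd3 lost it without KO 1w replicate 1 or KO 3w replicate 2, and Suz12 without KO 1w replicate 2. Ezh1 lost its call at 1w without control 1w replicate 2, and Smyd1 at 3w with upper-quartile factors. The highest edgeR or DESeq2 adjusted p over the alternatives was 0.271 for Smyd5, 0.349 for Kdm4a and 0.108 for Ezh1 at 1w, and 0.0997 for Smyd1 at 3w. It was 0.143 at 3w and 0.338 at 1w for Smyd3, and 0.179 at 3w and 0.146 at 1w for Suz12. At 3w 2 genes, Smyd5 and Kdm4a, were called and changed by at least 1.5-fold, against 18.9% of all genes tested, and at 1w 0 of 48, against 13.2%.

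In opposite directions at the 2 time points 6 genes were called, against 6.24% of all genes tested: Kmt2c, Setd7, Setdb2, Prdm16, Kdm1b and Kdm5a. Kmt2c and Setd7 kept both calls in all alternatives, and the other 4 lost 1 of theirs. Setdb2 lost that at 1w with DESeq2 and without KO 1w replicate 1 or either control library at 1w, and Prdm16 lost that at 1w without KO 1w replicate 2, with an edgeR or DESeq2 adjusted p of up to 0.21 and 0.0675. Kdm1b and Kdm5a lost theirs at 3w, as given above. Setd7, an H3K4 monomethylase with many other substrates at chr3:51515319-51560879, had 90.5 and 85.6 CPM in KO at 3w, against 68.3 and 68.6 CPM in control at 3w. Its other levels were 63.02 and 66.7 CPM in KO at 1w, against 86.3 and 85.1 CPM in control at 1w. Its KO difference at 3w less that at 1w was 0.77 (SE 0.0587) on the log2 scale, with an adjusted p of 3.16e-17 by edgeR's quasi-likelihood test. The libraries with at most 3 Y-linked counts, KO at 3w and control at 1w, all lay above the other 4. Kmt2c, the relative of Kmt2d, had 61.4 and 58.95 CPM in KO at 3w against 52.4 and 49.6 CPM in control, then 38.6 and 40.1 CPM in KO at 1w against 49.95 and 46.3 CPM in control. Prdm16, a regulator of brown fat and of ventricular muscle, had 31.8 and 33.2 CPM in KO at 3w against 22.7 and 24.03 CPM in control, then 34.7 and 32.6 CPM in KO at 1w against 38.8 and 38.6 CPM in control. In both, the group order turned round between the time points.

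Setdb2, whose libraries are given above, was lower in KO at 3w (-0.43, SE 0.0955) and higher in KO at 1w (0.37, SE 0.134). Kdm1b, the LSD2 enzyme of H3K4, had 15.6 and 17.1 CPM in KO at 3w against 13.3 and 15.3 CPM in control, then 10.1 and 10.3 CPM in KO at 1w against 13.7 and 12.3 CPM in control. Kdm5a, an H3K4 demethylase, had 33.6 and 34.2 CPM in KO at 3w against 30.7 and 30.1 CPM in control, then 27.3 and 26.6 CPM in KO at 1w against 33.1 and 31.8 CPM in control. The KO libraries of Kdm5a lay above the controls at 3w and below them at 1w. As with Setd7, all 4 libraries with at most 3 Y-linked counts lay above the other 4 for Kdm5a and Kdm7a, and for Suv39h2 all 4 lay below. That is 4 of the 48 genes, against 3.59% of all genes tested. Chosen after their values were seen, the X-linked demethylases Kdm5c and Kdm6a, which are not on the list, showed the same order. Kdm5c had 76.05 and 76.2 CPM in KO at 3w against 42.9 and 41.3 CPM in control, then 49.7 and 47.6 CPM in KO at 1w against 65.98 and 69.2 CPM in control. Kdm6a had 31.6 and 31.3 CPM in KO at 3w against 19.3 and 19.4 CPM in control, then 15.1 and 13.4 CPM in KO at 1w against 30.4 and 26.5 CPM in control. The X-linked gene of the list, Phf8, was not called in KO over both time points (-0.12, SE 0.0538) or in the difference between time points (0.03, SE 0.108). These 6 differences and the Y-linked split cannot be told apart.

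**Figure D5:**
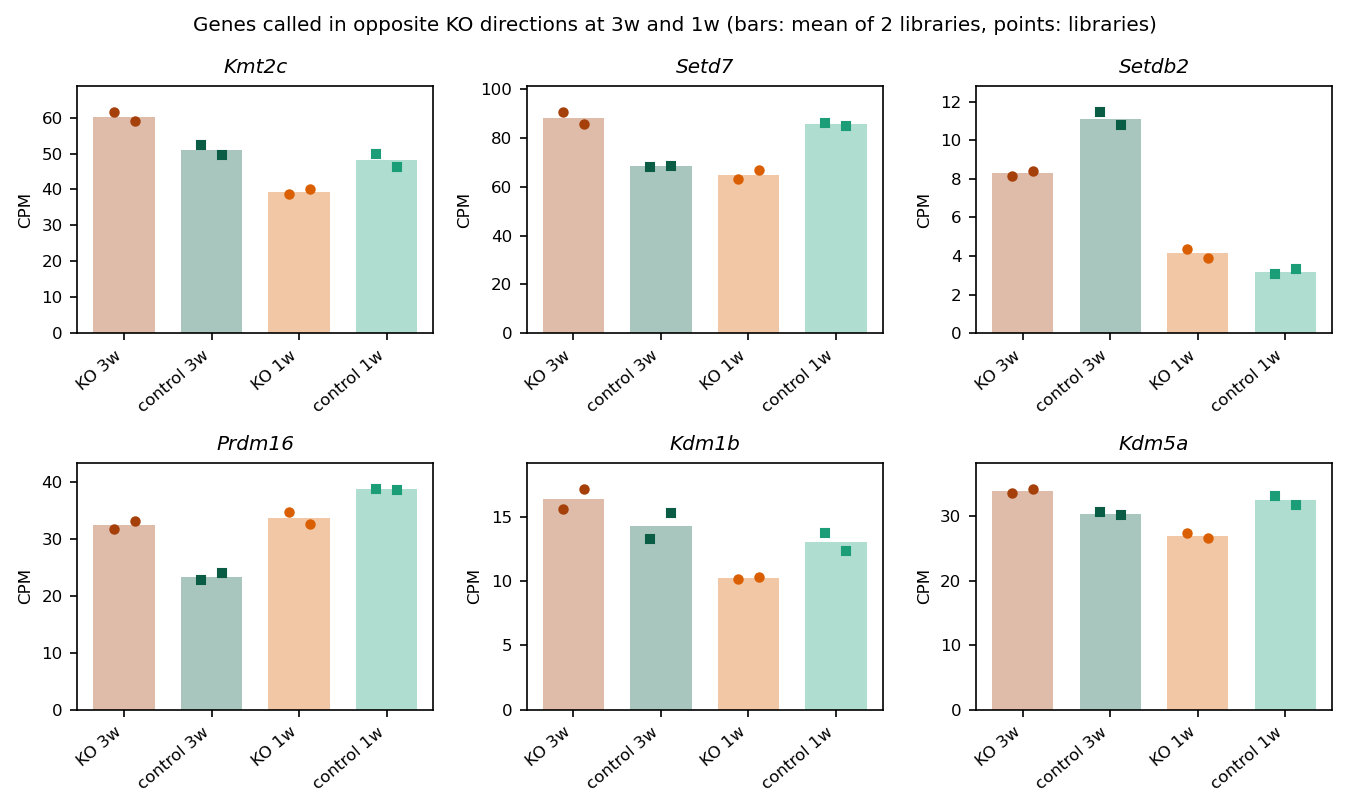
CPM (y axes, each from 0) of the 6 genes called in opposite directions in KO at the time points, in KO at 3w, control at 3w, KO at 1w and control at 1w, with bars for the mean of 2 libraries and points for the libraries. For Setd7 and Kdm5a the libraries of KO at 3w and control at 1w, which have at most 3 Y-linked counts, stand above the other 4.

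The test of whether the KO difference changed between time points passed for 20 of the 48 genes. In 12 the value at 3w was higher, and in 8 it was lower. Among all genes tested 35.6% passed, 17.6% higher and 17.9% lower. DESeq2 called 11, again with no share of all genes tested beside it. Of the 20, those past 1.5-fold were Setd7, Setdb2 and Prdm16, against 14.7% of all genes tested. Of the genes with a lower value at 3w, Kdm4a and Kdm4b had the same size of change, -0.46 (SE 0.0705) and -0.46 (SE 0.0733). Within KO 30 genes differed at 3w from 1w, 16 higher and 14 lower. Among all genes tested 67.9% did, 33.2% higher and 34.6% lower. Within control 32 did, 13 higher and 19 lower, against 70.8% of all genes tested (34.9% higher, the rest of the calls lower).

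Partner genes of these enzymes were counted in the same way, beside the 52.8% of all genes tested that were called in KO over both time points (27.5% higher and 25.3% lower). Of 17 tested other methyltransferases and demethylases 5 were higher and 4 lower in KO over both time points, with Hr, the hairless H3K9 demethylase, at 0.64 (SE 0.0384), Riox1 at -0.48 (SE 0.131) and Setmar at -0.36 (SE 0.139). The log2 fold change of Hr was -0.36 at 3w and 1.63 at 1w, and Hr lost its call in the additive fit. Setmar lost its call in 6 of 15 alternatives, among them those without control 1w replicate 2, control 3w replicate 1, KO 1w replicate 1 or KO 3w replicate 1. Among 12 tested COMPASS subunits 4 were higher and 3 lower in KO, with the core subunit Ash2l at -0.21 (SE 0.0425), Psip1 at 0.19 (SE 0.0744) and Paxip1 at -0.19 (SE 0.0456). Psip1 also lost its call in 6 of 15 alternatives, among them those without control 1w replicate 1, control 3w replicate 1, KO 1w replicate 1 or KO 3w replicate 2. Of the 10 tested partners of Kdm1a in the CoREST complex 4 were lower and 0 higher in KO, among them Rcor3 (-0.26, SE 0.0472) and the deacetylase Hdac2 (-0.25, SE 0.0339). H3K9 methylation partners and readers held 1 call of 9 in KO, Cbx5 at -0.07 (SE 0.0298). That average is made up of opposite values, 0.3 at 3w and -0.44 at 1w. Cbx5 lost its call in 8 of 15 alternatives, among them those without control 1w replicate 2 or either KO library at 1w. Over the alternatives, edgeR or DESeq2 gave an adjusted p of up to 0.344 for Hr, 0.224 for Setmar, 0.544 for Psip1 and 0.716 for Cbx5. Paxip1 and Rcor3 also lost their calls in the additive fit. At 3w the log2 fold changes were -0.52 for Paxip1, -0.53 for Rcor3 and 0.46 for Psip1. At 1w they were 0.14, 0.01 and -0.08.

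The partner lists were also counted at 3w against 1w, where 76.8% of all genes tested were called (37.4% higher and 39.4% lower). The called shares of 80.0% for the CoREST partners, 83.3% for COMPASS and 77.8% for the PRC2 accessory genes lay near that background. The share was 100% for the 9 tested H3K9 partners and readers and 47.1% for the 17 tested other methyltransferases and demethylases. With so few genes in each list nothing is read from these shares. CoREST partners fell in 7 of 10 and rose in 1, with the deacetylase Hdac1 at -1.35 (SE 0.0642) and Rcor2 at -0.67 (SE 0.0776). Among the H3K9 partners and readers 7 of 9 fell and 2 rose, led by Uhrf1, a hemimethylated DNA binder of dividing cells, at -2.10 (SE 0.0747). Its list also held the heterochromatin proteins Cbx3 (-0.86, SE 0.0582) and Cbx5 (-0.60, SE 0.0297). COMPASS subunits were split, 5 up and 5 down of 12, with Psip1 at -1.19 (SE 0.0724), Bod1 at 0.65 (SE 0.0353) and Wdr82 at -0.63 (SE 0.0342). PRC2 accessory genes fell in 4 of 9 and rose in 3, among them Epop at 0.66 (SE 0.264). That average of Epop is made up of -0.18 (SE 0.359) in KO, which did not pass the test, and 1.49 (SE 0.37) in control. Epop lost its call in 5 of 15 alternatives, DESeq2, the additive fit and the fits without control 1w replicate 2, KO 1w replicate 2 or KO 3w replicate 1, with an edgeR or DESeq2 adjusted p of up to 0.123. Other methyltransferases and demethylases rose in 5 of 17 and fell in 3, with Hr at 1.82 (SE 0.0374), Setd6 at 0.94 (SE 0.0823) and Mecom, a regulator of stem cells, at -0.94 (SE 0.0728). The mitosis genes fell in all 14 over the same contrast, and their part in these differences was not tested.

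Summed over the 48 genes, the level was 2254 to 2267 CPM in KO against 2312 to 2332 CPM in control at 3w, then 2003 to 2015 CPM in KO against 2121 to 2127 CPM in control at 1w. The demethylases alone summed to 398 to 405 CPM in KO against 439.5 to 441 CPM in control at 3w, then 396 CPM in both KO libraries and 426 to 439 CPM in control at 1w. The methyltransferase group summed to 1856 to 1862 CPM in KO against 1872 to 1892 CPM in control at 3w, then 1607 to 1618 CPM in KO against 1688 to 1695 CPM in control at 1w, a sum in which Smyd1 alone had 418 and 428 CPM in KO at 1w, against 477 and 477 CPM in control at 1w. In each of the 3 sums every KO library lay below every control library of its time point. Smyd1 had 616 and 625 CPM in KO at 3w, against 678 and 663 CPM in control at 3w. This gap was wider than that of the methyltransferase sum at 3w. So was the gap of Kmt5a, with 182 and 184 CPM in KO at 3w against 232 and 223 CPM in control. The order of that sum at 3w therefore depends on single genes such as these.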

How the data were processed

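The deposited values were 1 table of whole-number gene counts for 8 libraries in 4 groups of 2, used as raw counts. Per the submitters' processing notes, the authors used FastQC, MultiQC, HISAT2, featureCounts and DESeq2 with mm10 to process the reads; their versions, the strand setting and the annotation were not given in the sources used here. Gene names, lengths and positions came from GENCODE M21, which named 54723 of 54752 IDs, and promoter windows from RefSeq (GRCm38.p6).

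Genes were filtered with edgeR's filterByExpr (minimum count 10, minimum total 15), which left 14665, and scaled by TMM, with factors of 0.759 to 1.23. One edgeR quasi-likelihood fit of the 4 groups (4 residual degrees of freedom, common coefficient of variation 3.03%) gave all comparisons, as contrasts, with Benjamini-Hochberg adjustment over all genes tested. Calls are genes with an adjusted p under 0.05. CPM use the TMM factors. The procedure was tested on simulated data. The mean chi-square per gene between replicates of a group was 1.45 to 6.64, above sampling noise, and genes with high counts can raise this mean. It does not show whether the libraries are separate animals. Replicates were kept separate.

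The genes and lists were chosen with earlier results of these data known. Library values are given for the 8 largest called changes in KO over both time points and at 3w against 1w, for genes called in opposite directions, and for Ezh1 and Ezh2. They are also given for Carm1, Kmt2d, Smyd1, Suz12, Kdm5c and Kdm6a, which these criteria did not select. Up to 3 called genes of each partner list are named per comparison. One gene that this rule would name is not reported here. Alternatives were DESeq2, RLE and upper-quartile factors, no filter, mitochondrial genes left out, a replicate block, fits of only the compared groups, an additive fit and leaving out each library. Software was R 4.3.3, edgeR 4.0.16, limma 3.58.1 and DESeq2 1.42.0.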

Additional observations from a re-analysis of the deposited data

Results flagged for a closer look

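These genes showed a KO change at 3w that differed from the one at 1w, by edgeR's test of that difference with an adjusted p under 0.05. The values below are the KO log2 fold change at 3w less that at 1w. All of them cannot be told apart from the Y-linked split of the libraries, and no cause was tested.

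Among the listed enzymes 12 had a higher value at 3w. In the H3K4, H3K9 and H4K20 writers the values were 0.52 for Kmt2c, 0.77 for Setd7, 0.68 for Prdm16 and 0.54 for Kmt5b. H3K36 writers had 0.2 for Nsd1, 0.34 for Nsd2 and 0.16 for Ash1l. For SMYD genes they were 0.21 for Smyd2 and 0.41 for Smyd5. Erasers had 0.55 for Kdm1b, 0.42 for Kdm5a and 0.55 for Kdm7a.

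The other 8 had a lower value at 3w. Among writers these were -0.21 for Kmt2b, -0.8 for Setdb2, -0.14 for Kmt5a, -0.39 for Kmt5c and -0.16 for Setd3. The erasers had -0.31 for Kdm3a, -0.46 for Kdm4a and -0.46 for Kdm4b.

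Carm1 itself had -0.34. Of the partner genes named, those with a higher value at 3w had 0.54 for Psip1, 0.24 for Jarid2, 0.74 for Cbx5 and 0.36 for Cbx3. Those with a lower value at 3w had -1.99 for Hr, -0.75 for Setd6, -0.65 for Paxip1, -1.67 for Epop, -0.54 for Rcor3 and -1.01 for Uhrf1.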

How the results depend on the processing

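The counts of called genes among the 48 moved by more than 1.5 times in these cases: the additive fit called 12 in KO over both time points, in place of 23. DESeq2 called 13 in KO at 1w in place of 24, 18 in KO at 3w in place of 28, and 11 in the difference between time points in place of 20. Without KO 1w replicate 2 the count in KO at 1w was 15, and without KO 1w replicate 1 that of the difference was 13. Except for the additive fit, no share of all genes tested is given beside these counts. They do not show whether the listed genes moved more than other genes. The cause was not tested. Leaving out each library in turn gave 18 to 23 calls in KO over both time points, 32 to 36 at 3w against 1w, 15 to 26 in KO at 1w, 21 to 29 in KO at 3w, 23 to 30 within KO, 28 to 31 within control and 13 to 19 in the difference between time points. A lone library was then assumed to vary like the other groups.

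With replicate number as a block the counts, in the same order, were 24, 35, 23, 27, 30, 31 and 19. Deviations of libraries with the same number correlated at -0.0222 to 0.0083, so no shared deviation by number was seen. Within a time point, KO and control libraries of the same number share the injection day. With 2 libraries a group the correlations cannot exclude a pairing. Over 224 called values and 3340 alternatives, 3002 kept their call, 338 lost it and 0 reversed. In KO over both time points 12 genes were called in every alternative, 4 higher and 8 lower, and at 3w against 1w 28 were. Low levels limit Suv39h2, Kmt5b, Kdm7a and Kdm8, and 2 libraries a group limit every gene.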
